A study of Mus musculus with 9 samples.

Results

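The regions described here held a ZEB1 peak in untreated PB3 cells and after 24 h of eribulin, and none after 48 or 72 h. A region belonged to the set when the consensus row overlapped, by 1 bp or more, a peak of the control list and a peak of the 24 h list and no peak of the 48 h or 72 h list. This gave 1326 of 23623 consensus regions (5.61%), which together covered 453.5 kb of the mouse genome (build GRCm38, mm10, which all coordinates below use). Because the peak lists chose the regions, every count, call and fold change between the groups below describes the choice. No p-value is printed for a single region, and a region called lower by adjusted p is no independent support for a change there.

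PB3 is a mouse breast cancer cell line whose labels give no oestrogen receptor, progesterone receptor or HER2. The study measured, by CUT&RUN with an antibody to ZEB1, untreated cells and cells kept for 24, 48 or 72 h in 300 nM eribulin, with 2 libraries in each of the 4 groups. A single IgG library from untreated cells served the peak calling. The untreated libraries carry the line name PB3-Parental and the treated ones PB3_ERI, and the labels do not say whether this marks more than the treatment. All cells were bulk cultures, so fewer bound cells and less signal per bound cell cannot be told apart, and the labels give a single untreated group for all 3 times.

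The zinc-finger protein ZEB1 binds short E-box sequences, represses epithelial genes through corepressors such as CtBP, and can also act with AP-1 and the YAP and TEAD factors at enhancers of mesenchymal genes. CUT&RUN uses a nuclease tethered to the antibody to release the DNA beside the bound protein. Eribulin blocks the growth of microtubules and arrests cells in mitosis, and the study's title places it in work on mesenchymal-epithelial transition as a therapy.

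Sequence is shown where a gene start listed in RefSeq (GRCm38.p6) lay inside a region, which was the case for 90 of the 1326 regions (6.79%, beside 19.9% of all consensus regions). The table gives, for each start, 250 bases before it and 50 after it. The 90 regions held the starts of 106 such windows. Of these, 14 (13.2%) held TGACTCA or TGAGTCA, the letters bound by AP-1, which are reverse complements of each other. The same letters stood in 268 of 5943 windows that start in any consensus region (4.51%), in 142 of 3268 that start in a region of all 4 lists (4.35%) and in 1709 of all 32851 windows (5.20%). The share was 7.83% (17 of 217) for regions of the control, 24 h and 48 h lists and 5.41% (19 of 351) for regions of the control list alone. The 14 windows lay in 12 regions, since some windows share a site. No test was run on these shares, and the windows differed in base composition. The median GC content was 59.7% in the 106 windows, 63% in windows of any consensus region and 52.7% in all windows. It was 59% for the control, 24 h and 48 h lists and 60.7% for the control list alone.

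The letters CACCTG or CAGGTG, the core of the known ZEB1 E-box on either strand, stood in 21 of the 106 windows (19.8%), beside 16.5% for any consensus region (982 of 5943) and 20.2% of all windows (6640 of 32851). The wider CANNTG, which holds CACCTG, stood in 64 (60.4%), beside 60.4% for any consensus region and 72.3% of all windows. For CACCTG or CAGGTG the share was 19.4% (42 of 217) for regions of the control, 24 h and 48 h lists and 9.40% (33 of 351) for regions of the control list alone. For CANNTG it was 67.3 and 59.5% in the same windows. A match is a description of these letters and not a shown binding site.

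The stretches with AP-1 letters in 7 regions are printed 5′ to 3′ on the strand of the named start, with the AP-1 letters in capitals, to show the letters counted above. The first 5 are from regions with a lower mean in the 48 and 72 h libraries than before, and the last pair, Capn2 and Palld, from regions with a higher one.
Gm30970, chr14:79135320-79135346, minus strand: aaaaacaaggTGACTCAaaggatgagg
Gm8883, chr1:71888000-71888026, plus strand: gccaggctcaTGACTCAgtgggggaag
Galnt15, chr14:32029035-32029061, plus strand: tgctctgaccTGACTCAaggcatccca
Prss23, chr7:89518334-89518360, minus strand: gtcaccaggcTGACTCAgtcccccagg
A130051J06Rik, chr15:95794426-95794452, minus strand: gggaggaggaTGACTCAcagggaaaga
Capn2, chr1:182517777-182517803, minus strand: catccgctccTGACTCAtccgatgttt
Palld, chr8:61591177-61591203, minus strand: ggaggctcacTGAGTCActgagctgct

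The promoter with the highest signal among the named regions was that of Gsto1, a glutathione transferase gene, and it held CAGGTG beginning at position -200 from the start. Tgfbr2, the gene of the type II TGF-beta receptor, is shown beside it as a promoter with neither E-box nor AP-1 letters in the 250 bases before its start. Capitals mark CANNTG.
Gsto1, chr19:47854723-47854972, plus strand: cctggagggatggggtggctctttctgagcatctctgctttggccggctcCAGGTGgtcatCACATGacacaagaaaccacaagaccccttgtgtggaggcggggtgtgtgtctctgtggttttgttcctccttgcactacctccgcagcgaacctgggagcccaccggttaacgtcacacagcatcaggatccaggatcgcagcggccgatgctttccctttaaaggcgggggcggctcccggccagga
Tgfbr2, chr9:116175364-116175613, minus strand: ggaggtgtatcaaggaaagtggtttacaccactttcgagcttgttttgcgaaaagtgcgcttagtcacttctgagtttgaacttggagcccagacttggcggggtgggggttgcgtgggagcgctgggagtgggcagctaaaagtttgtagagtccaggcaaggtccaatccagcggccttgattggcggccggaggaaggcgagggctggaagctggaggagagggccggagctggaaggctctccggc

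Further CAGGTG letters are shown from Atf4, a stress response transcription factor gene, and from Gm10602 in the region assigned to the lipid phosphatase gene Inppl1. They are in capitals.
Atf4, chr15:80255046-80255071, plus strand: ctagagcgccCAGGTGcagagccaat
Gm10602, chr7:101838159-101838184, plus strand: ttccgtgggcCAGGTGcgagcaggga

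In Prss23, a serine protease gene, the AP-1 letters of the stretch printed above (position -169) are followed by CAGGTG at position -156. Its region held 35.8 and 30.6 CPM (the usual depth-scaled count, here TMM-normalised over the tested regions) in the controls and 40.9 and 24.6 after 24 h, against 19.8 and 29.1 after 48 h and 16.2 and 18.8 after 72 h. Of the 12 regions with AP-1 letters, 8 had a lower fitted value late than early, with a median log2 fold change of -0.34 and a range from -1.16 (Gm30970) to 0.25 (Capn2). The 77 other tested regions with a gene start had a median of -0.0034, and the 20 with CACCTG or CAGGTG one of 0.0024. These medians come from the libraries that chose the regions and are descriptive.

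The regions held a smaller part of each library's counts in consensus regions at 48 and 72 h than in untreated cells or after 24 h. All shares here are of those counts, not of all reads of a library. They took 4.77% (95% Wilson interval 4.70 to 4.84) and 4.53% (4.48 to 4.58) of the consensus region counts of the 2 control libraries. At 24 h they took 4.67% (4.62 to 4.73) and 4.47% (4.42 to 4.52). The share was 3.66% (3.62 to 3.71) and 3.40% (3.36 to 3.45) after 48 h, and 3.28% (3.23 to 3.33) and 3.33% (3.27 to 3.39) after 72 h. The 4 late libraries (48 and 72 h) all lay below the 4 early ones (control and 24 h), with means of 3.42% ± 0.171 (SD, n = 4) and 4.61% ± 0.136 (SD, n = 4), a ratio of 0.742. Absence from the late lists did not mean a count of 0. In 7 of the 8 libraries every one of the 1326 regions held at least 1 count. In 72 h replicate 2, the shallowest library, 6 regions were at 0. Background reads can also give such counts, so they do not show bound ZEB1. Whether the late signal exceeded background was not tested. Intervals cover counting error only.

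**Figure D1:**
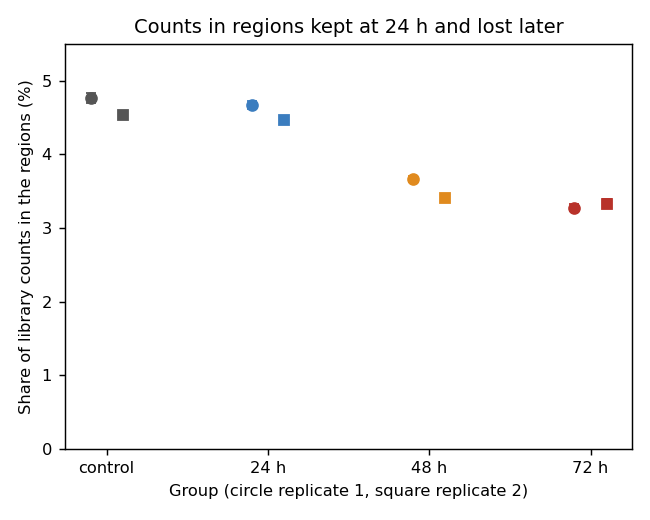
Share of each library's counts in consensus regions that fell in the 1326 regions, in percent, by group, with 95% Wilson intervals mostly hidden by the points. The early libraries lie between 4.47 and 4.77% and the late ones between 3.28 and 3.66%.

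Library totals in consensus regions ran from 326944 (72 h replicate 2) to 765015 (48 h replicate 1). The names in each peak list refer to replicate 1 and IgG. Those replicates held 372896 counts in the control group, 602187 in the 24 h group, 765015 in the 48 h group and 441521 in the 72 h group. Of these 4, the 48 h library was the deepest and the control library the shallowest. The part of depth in which regions entered a list was not tested. Replicates differed by about as much as counting error gives, with a chi-square per degree of freedom of 0.931 for control, 0.953 after 24 h, 1.06 after 48 h and 0.965 after 72 h. The labels do not say that replicates are separate cultures, so their spread may be technical.

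Within the control and 24 h lists the regions were of modest strength. The fold over IgG, the authors' value for each peak, had a median of 6.25 in the control list (range 3.18 to 25.01) and 5.92 in the 24 h list (3.46 to 15.3), beside 7.14 and 7.43 for all regions of those lists. The median −log10 q was 6.35 in the control list and 4.88 after 24 h, beside 8.07 and 6.84. After 24 h 47.5% of the regions reached a −log10 q of 5, beside 71.3% of all regions of that list, and in the controls 68.9% did, beside 76.2%. They were also shorter than regions of all 4 lists, with median lengths of 310 and 554 bp. The median was 347 bp over all consensus regions and 374 bp for regions of the control, 24 h and 48 h lists. Regions of the control list alone were shorter and weaker still, with medians of 213 bp and 5.28-fold over IgG. Those of the 24 h list alone had 173 bp and 5.58-fold. Per kb the medians were similar early and apart late: 101 CPM per kb in the controls against 111.8 for regions of all 4 lists, and 71.4 against 117.9 after 72 h. After 48 h the set had 76.8. These late medians lay among those of regions with no peak in the group's list. Regions of the 24 h list alone had 68.6 in the controls, 82.7 after 48 h and 79.0 after 72 h. Those of the control list alone had 65.6 after 24 h, 65.7 after 48 h and 63.0 after 72 h. All per kb values here are scaled by each library's consensus counts without TMM and include untested regions.

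At the edge of the rule, the least overlap was that of a region assigned to Sema4b, where only 8 bp were shared with a control or 24 h peak. A region assigned to Pigv belonged although a late peak came within 1 bp of it, and a region assigned to Cyp2u1 did not because a 72 h peak covered 1 bp of it. The 100 regions with the weakest early peak (−log10 q up to 2.19) had a median late against early log2 fold change of -0.23. Among regions outside the set with both a control and a 24 h peak, the 100 with the weakest late peak (up to 2.39) had one of -0.20.

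Signal was compared with edgeR across all 21192 tested consensus regions. The fit covered 1314 of the 1326 regions, and the other 12 were under its filter on low counts. Against the mean of control and 24 h, the mean of 48 and 72 h had a median log2 fold change of -0.44 over the 1314 regions (quartiles -0.67 and -0.19), beside 0.011 over all tested regions. The median without the filter, which then includes all 1326 regions, was -0.43. Most regions were thus lower by a moderate amount: 83 were at or below -1, 1070 lay between -1 and 0, and 161 were above 0. The 4 late libraries were all below the 4 early ones at 263 regions, where 5.22% of all tested regions were so, and all above them at 1, where 5.29% were.

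By adjusted p, 266 of the 1314 regions were called lower late than early, where 6.18% of all tested regions were called lower. None was called higher, where 6.74% of all were, and 8 were higher at an unadjusted p under 0.05. DESeq2 called 3 lower (0.203% of all tested regions), those inside Hhat and Gdpd5 and 1 with no gene within 50 kb, and none higher (0.0708% of all tested, with 0 of the set at an unadjusted p under 0.05). The edgeR count was 135 without control replicate 2, 149 without 72 h replicate 1, 176 without 72 h replicate 2 and 177 without 48 h replicate 1. The fitted spread between replicates beyond counting error differed between the tools. In edgeR the common coefficient of variation was 0.034, and in DESeq2 the root of the median dispersion was 0.259. The part of this spread in the numbers called was not tested. These calls rest on the contrast that chose the regions, and the background shares are printed for scale only.

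**Figure D2:**
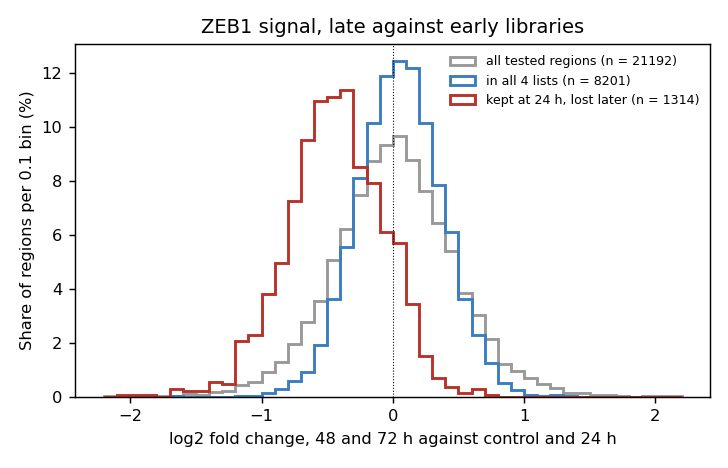
Distribution of the log2 fold change of 48 and 72 h against control and 24 h, as the share of regions per bin of 0.1, for all 21192 tested regions, 8201 regions of all 4 lists and the 1314 tested regions of the set. The set's curve is centred near -0.44 and overlaps the other curves.

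The difference was already present after 48 h. The median change from 24 to 48 h was -0.38 and from 24 to 72 h -0.49, while from 48 to 72 h it was -0.094, all beside medians within 0.01 of 0 over all tested regions (0.0037, -0.0051 and -0.0045). From control to 24 h the median was 0.00045. After 48 h 171 of the 1314 regions held at least their mean CPM of 24 h, and after 72 h 178 did. In edgeR 19 regions were called lower after 48 than after 24 h (0.533% of all tested), and 67 after 72 than after 24 h (2.39%). No region was called higher in either (0.222 and 2.32% of all tested), with 0 and 4 higher at an unadjusted p under 0.05. DESeq2 called none in either (0% of all tested after 48 h, and 0.0142% lower and 0.0142% higher after 72 h), with 51 and 95 lower and 0 and 0 higher at an unadjusted p under 0.05. Without 24 h replicate 1 or 2 the edgeR counts were 3 or 6 after 48 h and 24 or 30 after 72 h, and without 48 h replicate 1 it was 2 after 48 h. Leaving out 72 h replicate 1 or 2 gave 17 or 11 after 72 h.

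The rule treats control and 24 h alike, and 48 and 72 h alike. From control to 24 h, 34 regions were called lower (4.61% of all tested) and 24 higher (6.44%). DESeq2 called 1 lower and 1 higher (0.118 and 0.288% of all tested). Without control replicate 2 the counts were 3 and 2, without control replicate 1 the lower count was 20, and without 24 h replicate 1 or 2 they were 12 and 7 or 8 and 12. From 48 to 72 h edgeR called none lower (0.00944%) and none higher (0.0283%), with 50 and 8 at an unadjusted p under 0.05. DESeq2 called 0 and 0, with 11 and 0 at an unadjusted p under 0.05.

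The size of the change was similar in weak and strong regions. In 4 equal groups by mean CPM over all 8 libraries, the median late against early change was -0.48, -0.41, -0.45 and -0.43 from the lowest to the highest group. The number called lower was 48, 52, 65 and 101 of 328 or 329, and the median standard error went from 0.32 to 0.21. Other patterns of list membership had medians between those of the set and 0: -0.23 for the 1896 regions of the control, 24 h and 48 h lists, -0.035 for the 673 of the control, 24 h and 72 h lists, and -0.25 for the 3111 tested of the control list alone. Regions of all 4 lists had 0.056.

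Regions of the set lay away from gene starts and ends more often, by count, than consensus regions at large. Of the 1326, 177 (13.3%) had their centre within 1 kb of a protein-coding gene's boundary (its start or its end), 545 (41.1%) lay inside such a gene and 604 (45.6%) outside. Over all consensus regions the shares were 28.3, 36.2 and 35.5%, and over regions of all 4 lists 34.3, 33.2 and 32.5%. Regions of the control, 24 h and 48 h lists had 13.3% at boundaries, as in the set, those of the control list alone 18.3%, and those of the control, 24 h and 72 h lists 35.2%. The median distance to the nearest boundary was 20.8 kb in the set and 10.7 kb over all. Position is a measure the rule did not use, and it was compared by counts alone.

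**Figure D3:**
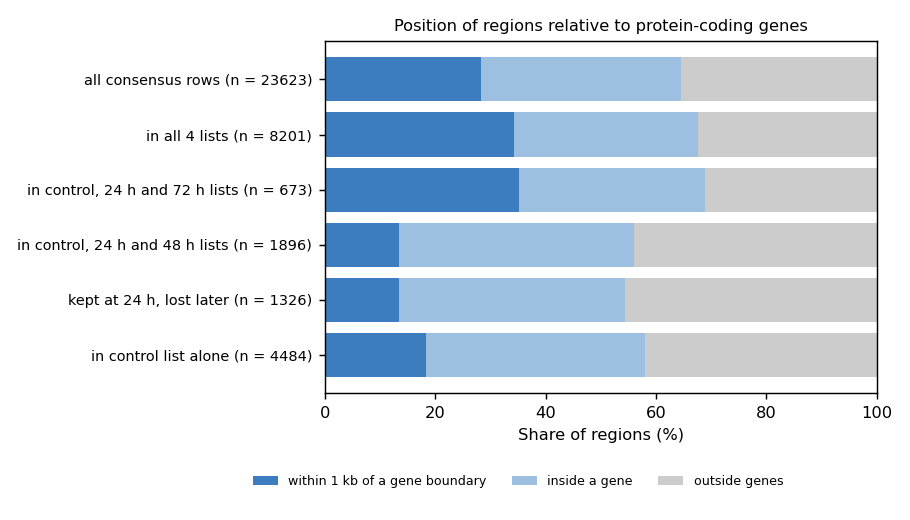
Share of regions within 1 kb of a protein-coding gene boundary, inside a gene or outside genes, for all consensus regions and for regions grouped by the lists that hold them. The set (kept after 24 h, lost later) has 13.3% at boundaries, beside 28.3% of all consensus regions.

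The regions at boundaries also had the smallest median difference. The 176 tested ones had a median late against early change of -0.12, beside -0.47 for the 542 inside genes and -0.49 for the 596 outside. Over all tested regions the medians had the same order, 0.27, -0.066 and -0.14. At boundaries 9 of the set (5.11%) were called lower, beside 1.01% of all boundary regions. Inside genes 113 (20.8%) were, beside 6.99%, and outside 144 (24.2%), beside 9.50%.

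Regions of the set were spread over the genome. Their share of a chromosome's consensus regions ran from 4.60% on chromosome 4 to 6.94% on chromosome 18, with 116 of 1677 on chromosome 1. Another consensus region lay within 10 kb of 52.9% of them, beside 49.8% of all consensus regions. The nearest such neighbour was itself of the set in 58 of 701 cases (8.27%), beside 6.06% for all consensus regions, and was in all 4 lists in 227 (32.4%, beside 33.9%). Small nuclear RNA genes were found within 1 kb at 3 of the 1326 regions, and a transfer RNA gene at 1. Over all 23623 consensus regions these counts were 63 and 83.

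Genes were assigned by the nearest boundary within 50 kb, which gave a gene to 939 regions (70.8%). Assignment is by distance alone and names no target. A region called near a gene can therefore lie far from it, for example 33.3 kb from the boundary at Tead1 and 48.3 kb at Cdk15. The regions fell to 861 genes, of which 792 had 1 region of the set, 60 had 2 and 9 had 3. The 9 were Ahnak, Fam185a, Hhat, Mras, Myc, Pik3r5, Rpl3, Tmprss11e and Zscan2, and no gene had more. Myc, the gene of a growth-promoting transcription factor, had 3 of its 7 consensus regions in the set, with late against early changes of -0.23, -0.041 and -0.45.

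Among the regions with the highest early signal, that near Vav3, a guanine nucleotide exchange factor gene, at chr3:109309377-109310465 came first. It held 138 and 154 CPM in the controls, 126 and 145 after 24 h, 122 and 71.9 after 48 h and 87.8 and 94.1 after 72 h. The late libraries lay below the early ones, with 48 h replicate 1 close under the lowest early library (log2 fold change -0.58, SE 0.136). The region at the start of Gsto1, chr19:47853993-47855128, held 116 and 139, 136 and 113, 134 and 99.2, and 87.8 and 104 CPM in the same order. Its groups overlapped, and the 48 h replicate 1 level was as high as those of the early libraries (-0.26, SE 0.135).

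Hhat, which encodes the enzyme that attaches palmitate to Hedgehog proteins, held the region with the largest difference. The region lies inside the gene at chr1:192745529-192746775, and a small nuclear RNA gene is less than 1 kb from it. It held 173 and 194 CPM in the controls, 64.8 and 46.4 after 24 h, 19.8 and 41.1 after 48 h and 20.8 and 22.0 after 72 h. Most of that difference lay before 24 h (log2 fold change -1.77 from control to 24 h, -0.90 from 24 to 48 h), although the region was still in the 24 h list, at 5.63-fold over IgG against 13.4-fold in the controls. Late against early the change was -2.01 (SE 0.209). The other regions of Hhat had -0.25 and -0.76.

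Of the other regions with the highest early signal, that inside Col6a3, a collagen VI chain gene, held 127 and 104 CPM in the controls and 113 and 85.9 after 24 h, against 76.7, 58.2, 60.1 and 72.1 in the late libraries (-0.64, SE 0.156). No late library reached an early one there. The region near Npas4, an activity-dependent transcription factor gene, held between 99.4 and 110.0 CPM early and between 55.5 and 84.7 late (-0.60, SE 0.154). At Rreb1, a Ras-responsive zinc-finger factor gene, the controls held 116 and 115 CPM and the 24 h libraries 78.4 and 76.4, already within the late range of 62.7 to 80.9 (-0.41). Hdac11, a histone deacetylase gene, had the same course, with 102 and 99.4 in the controls, 75.03 and 66.8 after 24 h and 40.8 to 76.3 late (-0.47). The regions near Tmem200a (-0.57), Ndfip1 (-0.47), an adaptor gene of ubiquitin ligases, and Cdk15 (-0.60), a kinase gene, completed the 10 with the highest early signal.

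Cdk15 went another way before it declined: its region held 82.5 and 53.5 CPM in the controls, 107 and 98.2 after 24 h, 87.3 and 39.3 after 48 h and 39.3 and 47.1 after 72 h. The 24 h libraries were the highest there, and the 48 h replicates were far apart. The late against early value was -0.98 without 48 h replicate 1.

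The 10 regions with the lowest late against early change, among those assigned to a gene that reached the median CPM of the set and had no overlap between late and early, were led by Hhat and the region near Tspan17, a tetraspanin gene (-1.34, SE 0.275). The region near Ier3, an immediate early response gene, held 60.5 and 64.2 CPM in the controls, 40.9 and 49.1 after 24 h, 23.8 and 37.6 after 48 h and 16.2 and 15.7 after 72 h (-1.28, SE 0.241). Each step in time lay below the one before. The region inside Gdpd5, a phosphodiesterase gene, went from 82.5 and 97.8 through 71.6 and 65.5 to 39.7 and 35.9 and then 23.1 and 37.6 CPM (-1.24, SE 0.195).

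The timing differed by value among these regions. Near Bicd2, which encodes an adaptor of the microtubule motor dynein, the early libraries held 66.0, 45.9, 52.9 and 62.8 CPM and the late ones 19.8, 32.5, 20.8 and 28.2 (-1.17, SE 0.229), a single step between 24 and 48 h. Inside Bicdl2, with Thoc6 as the nearest boundary, the step was as sharp, from between 49.5 and 59.6 CPM early to between 22.0 and 25.4 late (-1.17). The region near Nrep, chr18:33491699-33492052, went down at each time, from 55.0 and 65.7 CPM in the controls to 42.6 and 46.4, 31.8 and 35.9, and 18.5 and 12.5 (-1.18, SE 0.239). Near Arsb, a lysosomal sulfatase gene, the 48 h libraries (27.8 and 25.7 CPM) lay between the early range of 34.1 to 47.7 and the 72 h values of 11.6 and 12.5 (-1.15). The others were inside Cubn, the gene of the receptor cubilin (-1.18), and inside Pacsin2, a membrane-bending protein gene (-1.13), where 72 h replicate 2 held 9.41 CPM against 30.0 in replicate 1 and the value was -1.72 without replicate 1.

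**Figure D4:**
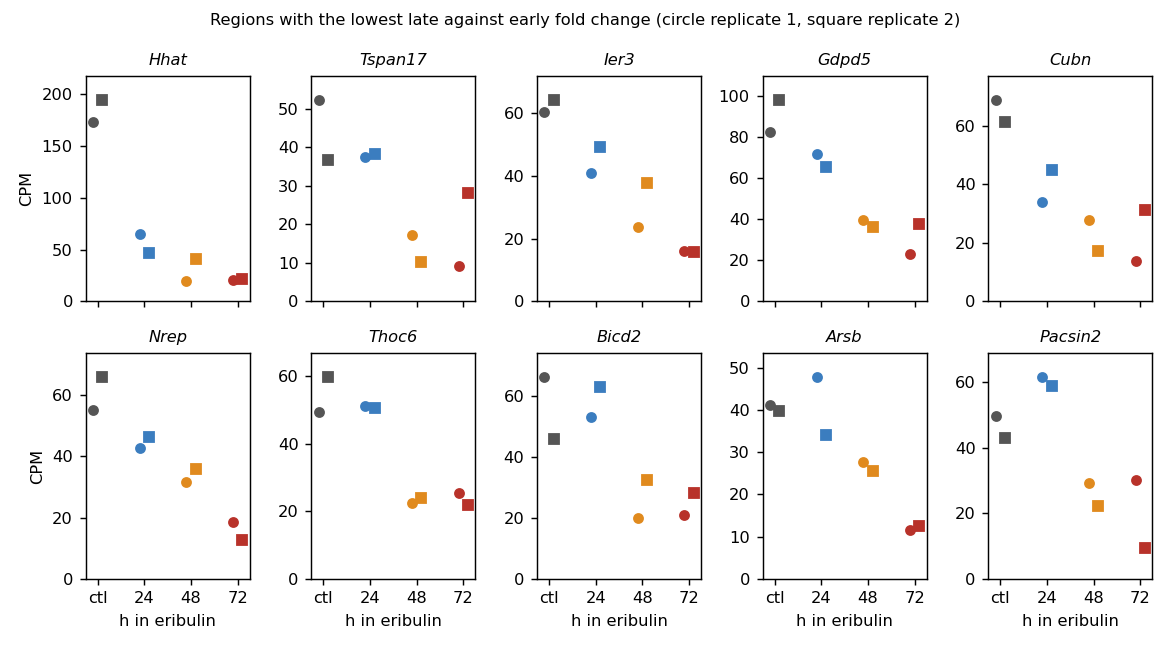
CPM in each library for the 10 regions with the lowest late against early log2 fold change under the limits in the text, each named for its assigned gene, by group. The 4 late libraries lie below the 4 early ones in each panel, and in Hhat the 24 h libraries already lie far below the controls.

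Some regions dropped out of the late lists with no lower signal. The largest late against early value, among regions with at least the median CPM of the set, was inside Stk38l, a kinase gene of the Hippo-related NDR family. It held 38.5, 32.1, 39.2 and 28.6 CPM early and 52.9, 37.6, 41.6 and 75.3 late (0.58, SE 0.215). The groups overlapped, and 72 h replicate 2 stood highest. The next were at boundaries: Tmub1 (0.57), the magnesium transporter gene Slc41a1 (0.48), the oligonucleotide-degrading enzyme gene Rexo2 (0.44) and Ccdc138 (0.42). Some of these values depended on single libraries. Without 72 h replicate 2 the value was 0.37 at Stk38l and 0.12 at Slc41a1. Without 72 h replicate 1 it was 0.18 at Tmub1 and 0.19 at Ccdc138, without 48 h replicate 1 it was 0.29 at Tmub1, and without control replicate 2 it was 0.23 at Ccdc138. At Slc41a1 72 h replicate 2 held 75.3 CPM and the other 7 libraries between 27.5 and 42.3. Tmub1 and Rexo2 were lowest in the controls, with 16.5 and 18.3 CPM and 19.3 and 16.8 CPM. Their changes from control to 24 h were 0.91 and 0.87, and those from 24 to 48 h 0.072 and -0.24.

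Fold over IgG in the control list picked other regions. That near Evi5l had 25.01-fold, the highest of the set, yet only 22.0 and 32.1 CPM in the controls and between 23.1 and 34.1 in the other libraries (-0.097, SE 0.256). The level there was much the same in all libraries. P3h2, a collagen-modifying enzyme gene, had 15.3-fold (-0.49), Srbd1 14.9-fold (-0.76), Ctdp1, the gene of an RNA polymerase II phosphatase, 14.3-fold (-0.97) and Tmprss11e 13.7-fold (-0.32).

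Regions assigned to genes of 13 lists, chosen to fit ZEB1, breast cancer cells and a microtubule drug, are given by count. Beside these counts stand the 5.61% of all consensus regions that belong to the set and the 6.18% of all tested regions called lower late than early. For regions of the set the nearer scale is the set's own share called lower, 266 of 1314 (20.2%). Of 54 regions assigned to epithelial genes 6 (11.1%) belonged to the set, of which 2 were called lower, 0 higher and 4 did not pass. They included regions near the tight junction gene Cldn1, the desmosome genes Dsg2 and Pkp3 (with 2), and Mal2. The region near Dsg2, the gene of a desmosomal cadherin, held 46.8 and 45.9 CPM in the controls, 35.8 and 24.6 after 24 h, 21.2 and 17.1 after 48 h and 30.0 and 18.8 after 72 h (-0.73, SE 0.253), where 24 h replicate 2 overlapped the late range. Over all 51 tested epithelial regions 7 were called lower and 2 higher, with a median of -0.081.

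Of 95 regions assigned to mesenchymal genes 3 (3.16%) belonged to the set, of which 2 were called lower and 1 did not pass. Near Snai1, which encodes a repressor of E-cadherin, the region held 77.0 and 96.3 CPM in the controls, 83.6 and 76.4 after 24 h, 55.6 and 47.9 after 48 h and 60.1 and 65.9 after 72 h (-0.56, SE 0.166). Late and early libraries did not overlap there. They did not overlap either inside Prrx1, a mesenchymal homeobox gene, with 26.0 to 38.5 CPM early and 9.25 to 22.0 late (-0.99, SE 0.297), or near the collagen V gene Col5a1, with 18.3 to 29.0 and 11.6 to 15.4 (-0.82, SE 0.330). Over all 83 tested mesenchymal regions 10 were called lower and 1 higher, with a median of -0.19.

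Genes of YAP, TEAD and AP-1 had 11 of their 116 regions in the set (9.48%), near Amotl1, Ankrd1, Ccn1, F3, Ier3, Jun, Tead1 and Wwtr1 and 3 at Myc. Of the 11, 4 were called lower and 7 did not pass, with a median of -0.45. The region near Tead1, a partner of YAP on DNA, held 74.3 and 78.0 CPM in the controls, 56.3 and 51.8 after 24 h, and between 29.1 and 41.6 late (-0.88, SE 0.198). That near Ccn1, a YAP target gene, held 79.8 and 64.2 in the controls and 39.2 and 43.7 after 24 h, which lay within the late range of 31.8 to 47.1 (-0.41). So the step at Ccn1 lay before 24 h and that at Tead1 was spread over both intervals. Over all 101 tested regions of the list 8 were called lower and 4 higher, with a median of -0.013.

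Genes of the cytoskeleton and adhesion had the most regions, 18 of 219 (8.22%), at 15 genes. All 18 had a negative late against early value, with a median of -0.43, but only 1 was called lower and 17 did not pass. In the whole set 1153 of the 1314 tested regions were negative, with a median of -0.44, so neither value sets these genes apart. They included actin-binding genes (Actn1, Actn4, Vcl, Zyx, Tns3, Tpm1), the myosin gene Myh9, the integrin genes Itgav, Itgb1 and Itgb3, the laminin genes Lamb1 and Lamc1, and Rhob and Rock2. Near Itgav, the integrin alpha V gene, the region held 77.0 and 50.4 CPM in the controls and 56.3 and 54.6 after 24 h, against 51.6, 32.5, 32.4 and 59.6 late (-0.40, SE 0.200), so the groups overlapped. Near Tpm1, a tropomyosin gene, the change was -0.50 (SE 0.231) and near Tns3, a tensin gene, -0.49 (SE 0.235). The value at Itgav was -0.19 without 72 h replicate 1 and -0.62 without 72 h replicate 2, and that at Tpm1 -0.25 without control replicate 2. Over all 198 tested regions of the list 18 were called lower and 9 higher, with a median of -0.080.

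The signalling lists held few regions of the set. TGF-beta pathway genes had 4 of 83 (4.82%), and none was called. The region inside Smad3, a signal-carrying Smad gene, held 45.02 to 66.5 CPM early and 39.3 to 44.98 late (-0.30, SE 0.203). At the Tgfbr2 start, whose sequence is printed above, the libraries ran from 24.5 to 43.9 CPM with no order by group (0.0073, SE 0.236), and near the inhibitory gene Smad7 the value was 0.035 (SE 0.275). Wnt pathway genes had 2 of 52, near the co-receptor gene Lrp6 (-0.33) and the receptor gene Fzd7 (-0.35), and interferon genes 1 of 34, near Ifnar1 (-0.44). Of all 69 tested TGF-beta regions 6 were called lower and 6 higher (median 0.084). For Wnt these were 4 and 3 of 46 (-0.077), and for interferon 3 and 2 of 31 (-0.0036).

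For the drug's own target, 2 of 57 regions of microtubule and mitosis genes belonged to the set. The region at the start of the beta-tubulin gene Tubb5 held 24.8 and 45.9 CPM in the controls, 30.7 and 24.6 after 24 h, 38.4 and 17.1 after 48 h and 25.4 and 43.9 after 72 h (-0.055, SE 0.249). Replicates there differed as much as groups. That assigned to Incenp, a gene of the chromosomal passenger complex, had 0.19 (SE 0.223). It lay 39.6 kb from the boundary of Incenp and held the start of another gene, Gm36913. Over all 50 tested regions of the list 2 were called lower and 2 higher, with a median of 0.17. Cell cycle genes had 2 of 48, both called lower: near the cyclin-dependent kinase gene Cdk6, with 53.5 to 68.2 CPM early and 30.8 to 38.4 late (-0.73, SE 0.204), and near Wee1, the gene of a kinase that holds cells before mitosis, with 30.6 to 52.3 and 20.5 to 28.2 (-0.72, SE 0.248). Over all 42 tested cell cycle regions, however, 3 were called lower and 5 higher, with a median of 0.039. Genes of p53 and cell death had 2 of 71, including that near Mcl1 (-0.21), a survival factor gene. Of all 66 tested regions of that list 3 were called lower and 6 higher, with a median of 0.16.

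Of the ZEB1 corepressor and chromatin genes, 1 of 61 regions belonged to the set. It lies inside Ctbp2, the gene of a corepressor that ZEB1 recruits, and held 44.0 and 18.3 CPM in the controls, 37.5 and 35.5 after 24 h, 25.1 and 17.1 after 48 h and 23.1 and 12.5 after 72 h (-0.65, SE 0.281). Control replicate 2 lay within the late range, and leaving out control replicate 1 or 2 gave a value of -0.37 or -0.99. Over all 55 tested regions of the list 2 were called lower and 9 higher, with a median of 0.29. None of 20 regions assigned to apical-basal polarity genes belonged to the set.

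Genes that mark other cell types had 2 of their 7 consensus regions in the set, and both were called lower. Near Ptprc, a leukocyte gene, the libraries held 33.0 and 39.7 CPM in the controls, 30.7 and 25.9 after 24 h, 13.2 and 13.7 after 48 h and 4.62 and 6.27 after 72 h (-1.90, SE 0.344). Inside Pecam1, an endothelial gene, they held 38.5 and 38.2, 23.9 and 30.0, 22.5 and 22.2, and 13.9 and 12.5 (-0.90, SE 0.284). In both, the mean was lower at each later time. Over all 7 tested regions of the list the median was -0.33. ZEB1 signal at a gene is no measure of its expression, and the part of other cells in these values was not tested.

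**Figure D5:**
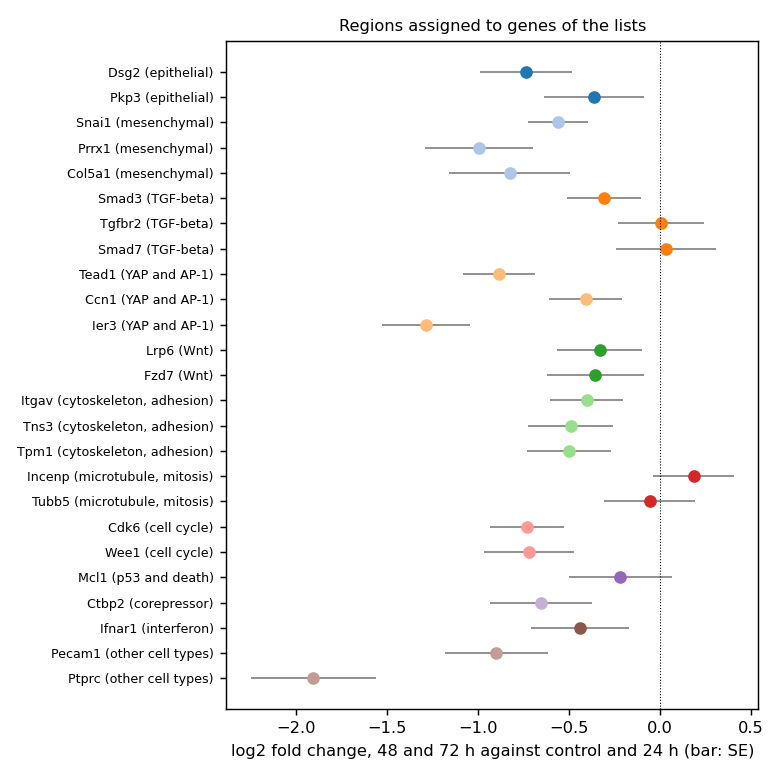
Late against early log2 fold change, with standard error bars, of up to 3 regions per gene list, those with the highest early CPM, each named for its assigned gene. Values run from -1.90 (Ptprc) to 0.19 (Incenp).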

How the data were processed

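ZEB1 CUT&RUN libraries of PB3 cells were analysed: 2 untreated and 2 each after 24, 48 and 72 h in eribulin. Per the labels, libraries came from the EpiCypher kit and were read paired-end at 76 bp. Per the submitters' processing notes, the tools were MACS2 2.1.1, Bowtie2 2.2.6, cutadapt 2.4, featureCounts, bedtools 2.30.0, Picard, deepTools and bcl2fastq 2.20.0.422, on GRCm38 (mm10), without their settings. The authors deposited a raw count per library for 23623 consensus regions, and 1 peak list per group. Each deposited list gives a score, a fold (ratio) over IgG and the −log10 of p and of q (the latter used here). Its peak names refer to replicate 1, and how replicate 2 entered is not stated. IgG was not part of any fit.

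Counts were fitted with edgeR 4.0.16 in R 4.3.3 (filterByExpr by group, TMM, robust quasi-likelihood F-tests, 1 mean per group). The fit kept 21192 regions, left out 2431, and adjusted p by Benjamini-Hochberg with a threshold of 0.05. Each standard error belongs to a fitted log2 fold change. No spike-in DNA was used for scaling here, so values are relative within a library. The fit was tested on simulated data. DESeq2 1.42.0 and the other alternatives are in the closing section. Promoter windows and gene positions are RefSeq's for GRCm38.p6.

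The regions and gene lists were chosen with earlier results of these data known. Regions named in the text have an assigned gene and are the 10 with the highest early CPM, the 10 with the lowest late against early change (at least the set's median CPM, no overlap), the 5 with the highest change at that CPM, the 5 with the highest fold over IgG in the control list and up to 3 per list. The genes with 3 regions, the edge regions, the AP-1 stretches and the Atf4 and Gm10602 stretches were chosen after their values were seen. Some named regions are not reported here.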

Additional observations from a re-analysis of the deposited data

How the results depend on the processing

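The number of regions was 1737 when a peak had to cover 50% of the region, 803 when peaks needed a −log10 q of at least 5 in all 4 lists, and 472 when this was asked of the control and 24 h lists alone. Those 472 had 140 regions called lower late than early and a median change of -0.53. Their counts were 14 lower and 3 higher at 24 h against control (median -0.046), 11 lower at 48 h against 24 h (-0.46) and 40 lower at 72 h against 24 h (-0.56). Over all tested regions of the same fit 6.18% were called lower late than early. At 24 h against control 4.61% were lower and 6.44% higher. Against 24 h 0.533% were lower at 48 h and 2.39% at 72 h. DESeq2 called 3 regions lower late than early, 1 lower and 1 higher at 24 h against control (median -0.013), and 0 at 48 h and 0 at 72 h against 24 h. Without the filter the median at 24 h against control was 0.017. With the pairs of control, 24 h and 72 h summed, an alternative chosen after seeing the data, 20 regions were lower at 24 h than in control and 11 at 48 than at 24 h. Within 2 kb 18.3% of the regions were at a boundary, and within 10 kb 36.1% had an assigned gene.

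Leaving out each library in turn gave 135 to 225 regions lower and 0 to 2 higher late than early (median -0.47 to -0.42), 3 to 34 lower and 2 to 27 higher at 24 h against control (-0.038 to 0.069), 2 to 23 lower at 48 h against 24 h (-0.45 to -0.34) and 11 to 77 lower at 72 h against 24 h (-0.54 to -0.45). The median from 48 to 72 h ran from -0.14 to -0.025. The number called higher at 48 h or 72 h against 24 h, and in either direction from 48 to 72 h, was 0 under the 14 alternatives. Of 689 fold changes of the 53 named regions under these alternatives 33 moved by more than their standard error with their sign kept, all with 1 library left out, and 15 changed sign, also with 1 library left out: Evi5l from -0.20 to 0.083, Tubb5 from -0.44 to 0.25, Tgfbr2 from -0.098 to 0.12 and Smad7 from -0.19 to 0.25.

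Replicate 1 minus replicate 2 differences correlated between groups at -0.0302 to 0.001. Because replicates differed by about counting error, these values cannot show whether the samples are paired. With the replicate block 255 regions were called lower late than early. At a median of 8 to 23 counts per region of the set, single changes the size of the standard errors given cannot be seen. Larger ones could also go uncalled, as at Ctbp2 (-0.65, SE 0.281).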
